A study of Arabidopsis thaliana with 6 samples.

Results

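*SAUR* (*SMALL AUXIN UP RNA*) genes form a large plant family of short transcripts, many of which accumulate soon after auxin treatment. Of 60 *SAUR* loci examined in inflorescences of the *tink/ibr5-6* mutant and of wild-type L*er*, 3 could be linked to a probe set. The members were chosen by family and not by their values, although earlier results of these data were known. A gene was taken where the annotation of the array gives a probe set to that gene alone, and 13350 genes of the series were measured in this way. The *tink/ibr5-6* group consists of 3 plants with a point mutation that replaces the active-site cysteine of IBR5, a dual-specificity MAPK phosphatase, by tyrosine. The mutation was induced with EMS in the *klu-2* background and was separated from *klu-2* by backcrosses to L*er*. The L*er* group consists of 3 wild-type plants of the Landsberg *erecta* accession, the background of both groups. RNA of inflorescences with young flower buds from each plant was hybridised to 1 Affymetrix ATH1 array, on which short oligonucleotides are grouped into probe sets. Neither plant age nor a shared growth batch is stated, so that p-values reflect only how much these plants varied.

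Many SAUR proteins promote cell expansion. SAUR proteins of the SAUR19 type inhibit PP2C.D phosphatases and thereby keep plasma membrane proton pumps active, and the acidified wall is then loosened by expansins. Auxin reaches these genes through TIR1/AFB receptors, Aux/IAA repressors and ARF transcription factors, and other hormones and light act on them as well. In roots, IBR5 is proposed to promote auxin signalling, which is why auxin-responsive transcripts are of interest in this mutant. For the allele used here, however, the study reports only a very weak insensitivity of roots to auxin. It also found no significant difference in auxin transport along stems and no altered pattern of an auxin reporter in petals. The study allows that its methods may have missed subtle changes of that reporter.

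The 3 measured genes are AT2G18010 (*SAUR10*), AT3G53250 (*SAUR57*) and AT1G43040 (*SAUR58*), each with 1 probe set. *SAUR10* responds to several hormones and is repressed in the shoot by the MADS box factor FRUITFULL. The other 57 loci are not listed in the annotation used here, neither alone nor in a probe set of several genes, and were not analysed. This limit comes from that annotation, which leaves 8730 of 22746 probe sets unlisted, so that their deposited values could not be assigned to genes here. Among the 57 were all 26 loci that lie in 7 tandem groups, which hold 2 to 8 members each. The group of 8, AT1G29420 to AT1G29510, includes *SAUR63*, whose subfamily promotes elongation of hypocotyls and stamen filaments. The group AT3G03820 to AT3G03850 holds *SAUR26* to *SAUR29*. AT5G18030 (*SAUR21*), which belongs to the SAUR19 type, *SAUR15* (*SAUR-AC1*), *SAUR36*, which promotes leaf senescence, and AT1G16510 (*SAUR41*) were also among those not analysed. *SAUR10*, *SAUR57* and *SAUR58* belong to no tandem group. Several *SAUR* genes stand in the study's own list of altered auxin genes, drawn from these arrays, and none of them is among the genes measured here. The values below therefore say nothing of most of the family.

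*SAUR10* had a log2 value of 2.10, 2.10 and 2.10 in the 3 *tink/ibr5-6* plants, against 2.10, 2.10 and 2.10 in the 3 L*er* plants. *SAUR57* likewise had a log2 value of 2.10 on each of the 3 *tink/ibr5-6* arrays and on each of the 3 L*er* arrays. *SAUR58* gave the same value, 2.10, on each of the 3 *tink/ibr5-6* arrays and on each of the 3 L*er* arrays. No array stood apart from another for any of these genes, and the genotypes overlapped completely. The value 2.10 is the lowest of the deposited log2 scale, whose highest value is 15.40. It is the level that gcrma, the normalization used, gives to probe sets without signal above the estimated background. All 3 genes were thus below detection in both genotypes, and their transcripts were not shown to be absent. With both genotypes at this level no fold change can be given.

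The lowest value was common on these arrays. Between 5027 and 5244 probe sets per array had it, to within 1e-06, and 4458 of 22746 probe sets (19.6%) had it on all 6 arrays. Of the 13350 measured genes, 3092 (23.2%) had it on all 6 arrays. The bin of the histogram that holds the 3 *SAUR* genes, from a log2 value of 2.0 to one of 2.25, holds 4402 genes. The next bin, up to 2.5, holds 313 genes, so that *SAUR10*, *SAUR57* and *SAUR58* lie in a sharp peak at the lower end of the scale.

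**Figure D1:**
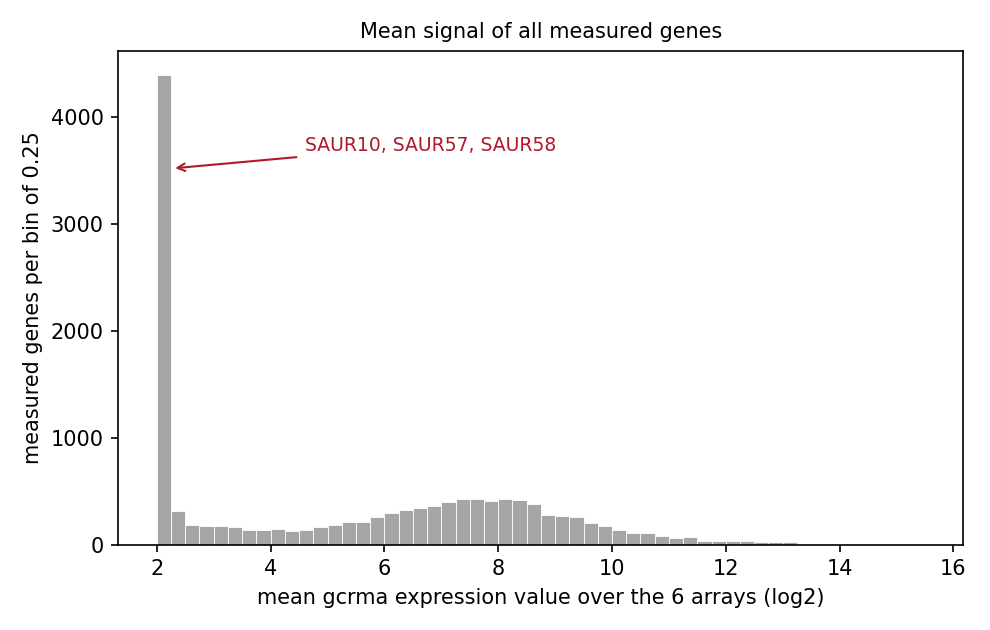
Number of measured genes (y axis) by mean gcrma expression value over the 6 arrays (x axis, log2, bins of 0.25). The arrow marks the lowest bin, which holds 4402 genes, *SAUR10*, *SAUR57* and *SAUR58* among them.

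To compare genotypes, limma was fitted to all 22746 probe sets, and calls were made where the Benjamini-Hochberg adjusted p was under 0.05 and the log2 fold change lay above 1 or below -1. None of the 3 *SAUR* genes was called lower and none was called higher by limma, where 2.71% of all probe sets were called lower and 1.53% were called higher. None of the 3 had an unadjusted p under 0.05 either, and their fitted log2 fold change was 0.00 with an adjusted p of 1 from limma, since their 6 values are equal. The median log2 fold change of the 3 genes was 0.00, as was that of all probe sets. These values describe the lower limit of the arrays and not a transcript that was measured as equal.

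A probe set at the lowest value in one genotype can be called in 1 direction only, and one that is there in both genotypes, as 4458 were, cannot be called. Of 4802 probe sets at the lowest value on all 3 L*er* arrays, the *SAUR* genes among them, 5 lay above a log2 value of 3 on some *tink/ibr5-6* array, and none was called higher by limma (2 were higher at an unadjusted p under 0.05). Of 4878 probe sets at the lowest value on all 3 *tink/ibr5-6* arrays, 23 lay above 3 on some L*er* array, and 5 (0.103%) were called lower. With the wider limit of a log2 value under 3 on all arrays of one genotype, 13 of 7410 probe sets that were low in L*er* (0.175%) were called higher in *tink/ibr5-6*, and 117 of 7512 that were low in *tink/ibr5-6* (1.56%) were called lower. *SAUR10*, *SAUR57* and *SAUR58* were in neither set of called probe sets, as they lay at the limit in both genotypes.

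Of the genes beside the *SAUR* loci, only some had a probe set of their own in the annotation used, and these were not uniformly dim. AT2G17990, which lies near *SAUR10*, had log2 values of 8.79, 8.73 and 8.82 in *tink/ibr5-6*, against 8.99, 8.97 and 8.79 in L*er* (log2 fold change -0.14, limma adjusted p = 0.26). AT3G53270, near *SAUR57*, had 7.22, 7.38 and 7.43 in *tink/ibr5-6*, against 6.73, 7.18 and 7.01 in L*er* (log2 fold change 0.37, adjusted p = 0.16 from limma). AT1G43010 and AT1G43020, near *SAUR58*, lay at 2.10 on all 6 arrays, as *SAUR58* did. None of these neighbours was called.

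Genes of other families known for early auxin responses, *Aux/IAA* and *GH3*, were set beside the *SAUR* genes. Many *Aux/IAA* genes encode repressors that auxin both induces and destabilises, and whether this holds for each gene measured here was not tested. Of 29 listed, 7 were measured and limma called none (none at an unadjusted p under 0.05), and 5 of the 7 (*IAA20*, *IAA29*, *IAA31*, *IAA33* and *IAA34*) lay at the lowest value on all 6 arrays like the *SAUR* genes. *IAA18* was clearly detected, with log2 values of 6.95, 6.86 and 7.00 in *tink/ibr5-6*, against 7.05, 7.20 and 6.83 in L*er* (log2 fold change -0.09, adjusted p = 0.7 from limma). *IAA30* had values of 2.44 to 2.57 in *tink/ibr5-6* and 2.46 to 2.52 in L*er*. Across the 7 genes, the median log2 fold change was 0.00.

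*GH3* genes encode enzymes that conjugate auxin to amino acids. Of 9 listed, 5 were measured, 1 was called lower (2.71% of all probe sets were), none was called higher and 4 were not called, with a median log2 fold change of 0.00. *GH3.3*, the gene called, had log2 values of 7.36, 7.42 and 7.16 in *tink/ibr5-6*, against 9.20, 9.52 and 9.08 in L*er*. Every *tink/ibr5-6* plant lay below every L*er* plant, and the log2 fold change was -1.95 (limma, SE 0.15, adjusted p = 0.0057). In whole inflorescences, fewer cells of a type and less RNA per cell cannot be told apart. *GH3.17* had values of 2.65, 2.66 and 2.30 in *tink/ibr5-6*, against 3.11, 3.54 and 3.36 in L*er*. Counted from a log2 level of 3, *GH3.17* was at least 1.26-fold lower in *tink/ibr5-6*, and it was not called (fitted log2 fold change -0.80, limma adjusted p = 0.042). The log2 fold change of *GH3.5* (*WES1*) was 0.43 (limma adjusted p = 0.17) and that of *GH3.9* was 0.03 (limma adjusted p = 0.8), while *GH3.1* lay at the lowest value on all 6 arrays. No test set the *SAUR* genes against the *GH3* genes, since *SAUR10*, *SAUR57* and *SAUR58* gave no measurable difference to compare.

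**Figure D2:**
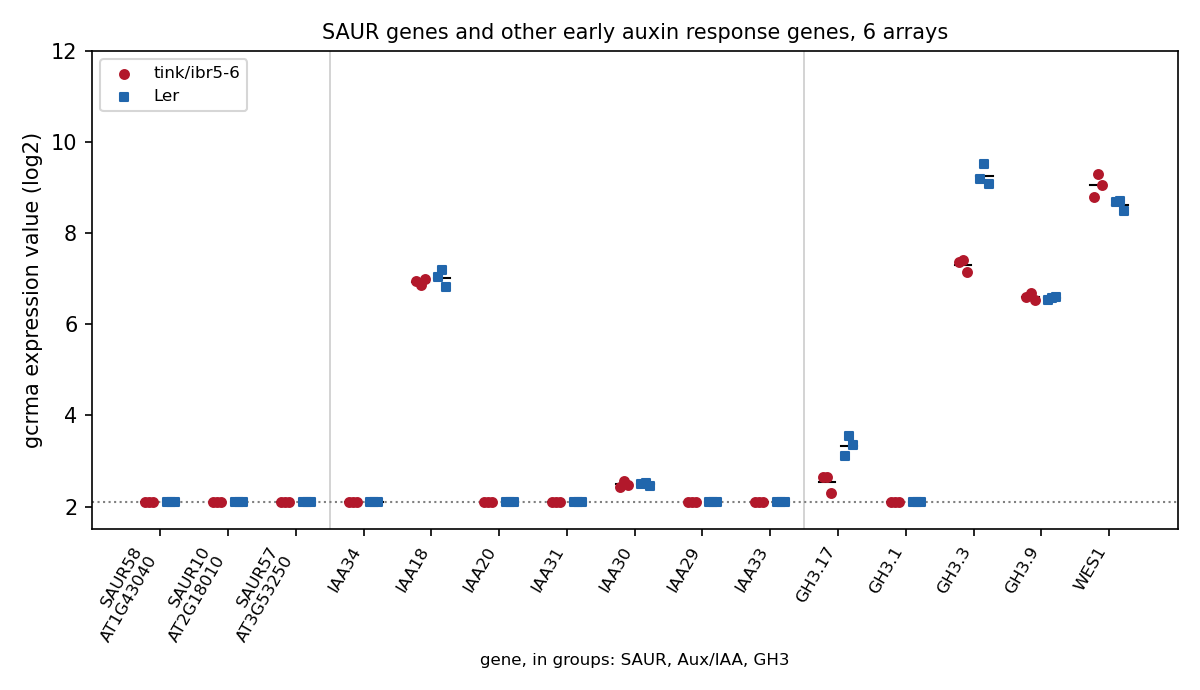
Gcrma expression value (y axis, log2) of the 3 *SAUR*, 7 *Aux/IAA* and 5 *GH3* genes measured (x axis), with circles for the 3 *tink/ibr5-6* arrays, squares for the 3 L*er* arrays, black lines for means and a dotted line at the lowest value, 2.10. The *SAUR* genes lie on the dotted line on all 6 arrays, and *GH3.3* lies between 7.16 and 7.42 in *tink/ibr5-6* and between 9.08 and 9.52 in L*er*.

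The steps by which SAUR proteins act on the cell wall were covered in part. None of 11 plasma membrane proton pump genes and none of 21 auxin receptor and ARF genes is listed in the annotation used here. Of 9 loci listed for PP2C.D phosphatases, 4 were measured and limma called none. For 2 of the 4 the adjusted p was under 0.05 and the change was too small for a call. These were AT3G12620 (log2 fold change -0.38, limma adjusted p = 0.025) and AT3G55050 (-0.46, limma adjusted p = 0.03), and the genotypes did not overlap for either. They overlapped for AT3G17090 (0.13) and AT3G51370 (0.02), and the median of the 4 was -0.18. How many of all probe sets had an adjusted p under 0.05 without the fold change limit was not counted. The annotation gives these 4 loci no gene name. *TCP15*, which encodes a transcription factor that has been linked to auxin homeostasis, was the 1 measured gene of 15 listed as acting upstream of *SAUR* genes. It had log2 values of 8.46, 8.09 and 8.19 in *tink/ibr5-6*, against 8.09, 8.07 and 8.20 in L*er*, which overlap (log2 fold change 0.13, adjusted p = 0.58 from limma).

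Of 19 alpha-expansin genes, which encode wall-loosening proteins, 8 were measured, 2 were called lower (against 2.71% of all probe sets), none was called higher and 6 were not called, with a median log2 fold change of -0.07. *EXPA8* had log2 values of 7.67, 7.15 and 7.33 in *tink/ibr5-6*, against 9.69, 10.15 and 10.37 in L*er*. The log2 fold change of *EXPA8* was -2.69 (limma, SE 0.24, adjusted p = 0.0076). *EXPA9* had 2.84, 2.57 and 2.37 in *tink/ibr5-6*, against 4.46, 4.66 and 4.69 in L*er*. The *EXPA9* values of *tink/ibr5-6* were below 3. Counted from a log2 level of 3 to the L*er* mean, *EXPA9* was at least 3.04-fold lower in *tink/ibr5-6* (fitted log2 fold change -2.01, adjusted p = 0.0055 from limma). The genotypes did not overlap for either gene. With replicate number added to the fit as a block, neither *EXPA8* (limma adjusted p = 0.085) nor *EXPA9* (limma adjusted p = 0.074) was called. *EXPA15* and *EXPA4* were detected in both genotypes, with log2 fold changes of 0.13 and -0.14 that did not pass (adjusted p of 0.72 and 0.68 from limma). *EXPA20* had values of 5.47 to 5.48 in *tink/ibr5-6* and 5.48 to 5.50 in L*er* (log2 fold change -0.01, adjusted p = 0.47 from limma). Whether this flat value is signal above background was not tested. *EXPA16* had values of 2.87 to 2.88 in *tink/ibr5-6* and 2.85 to 3.37 in L*er*. *EXPA7* lay at the lowest value on all 6 arrays, as the *SAUR* genes did, and *EXPA18* at 2.10 to 2.11.

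**Figure D3:**
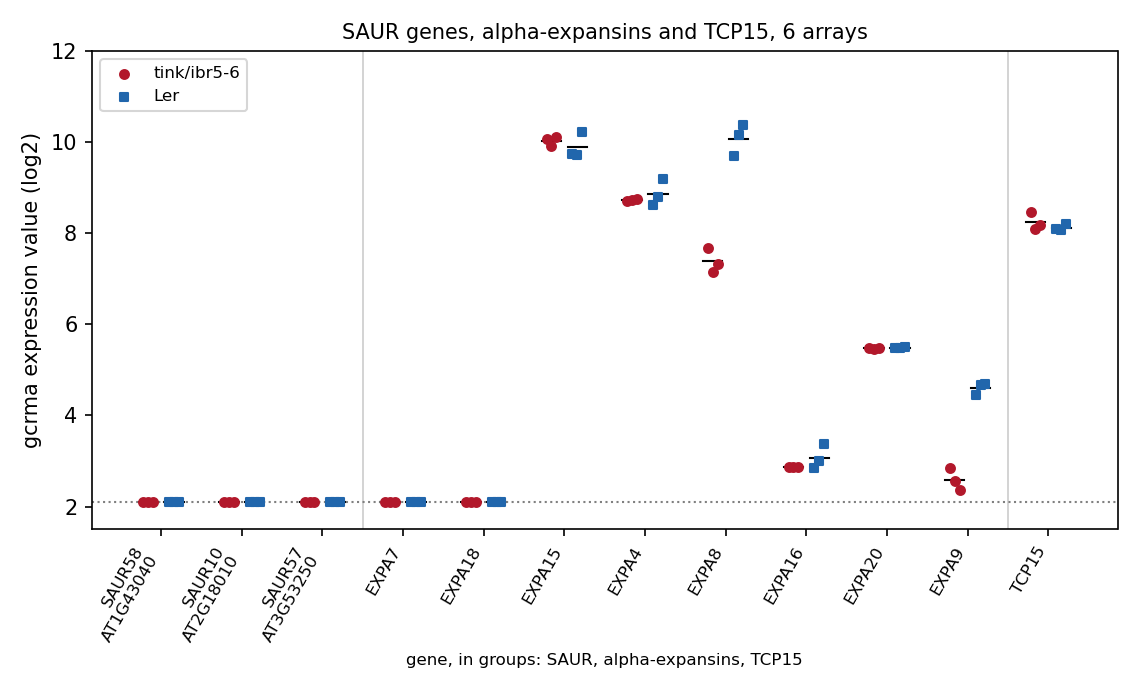
Gcrma expression value (y axis, log2) of the 3 *SAUR* genes, 8 alpha-expansin genes and *TCP15* (x axis), with circles for the 3 *tink/ibr5-6* arrays, squares for the 3 L*er* arrays, black lines for means and a dotted line at the lowest value, 2.10. *EXPA8* and *EXPA9* are lower in *tink/ibr5-6* on all 3 arrays, while the *SAUR* genes stay on the dotted line.

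Of the marker lists of other cells, only that of pollen held called genes. Of 21 genes of pollen and the pollen tube, 11 were measured and 7 were called lower by limma (against 2.71% of all probe sets), with none called higher. The mean over all 11 was 2.93 to 3.42 on the *tink/ibr5-6* arrays and 5.27 to 6.05 on the L*er* arrays. The 7 were *PLIM2a*, an actin-bundling LIM protein gene (log2 fold change -5.41), *AtVEX1* (-4.71), AT4G39110 (-3.18), *AGL104* (-2.53) and *AGL66* (-1.70), MADS box genes of pollen, the actin gene *ACT12* (-1.46), and *ANX2*, a receptor kinase gene of the pollen tube. Counted from a log2 level of 3 to its L*er* mean, *ANX2* was at least 7.53-fold lower in *tink/ibr5-6*. In *tink/ibr5-6*, *PLIM2a* had log2 values of 3.75, 2.23 and 2.33, and *AGL104* had 3.06, 2.82 and 2.14. Their fold changes thus rest in part on values near the lowest one. *ANX1*, the paralog of *ANX2*, lay at 2.10 on all *tink/ibr5-6* arrays, against 2.68 to 4.22 in L*er*, and was not called (limma adjusted p = 0.1). The part of pollen in the values of *GH3.3*, *EXPA8* and *EXPA9* was not tested. Of 16 tapetum genes 4 were measured, and limma called none, with array means of 11.54 to 11.73 in *tink/ibr5-6* and 11.25 to 11.35 in L*er*. For 2 of the 4 the adjusted p was under 0.05 and the change was too small for a call, the tapetal regulator gene *AMS* (log2 fold change 0.89, limma adjusted p = 0.025), and AT5G62080 (0.63, limma adjusted p = 0.039), while AT1G75920 had -0.34 (limma adjusted p = 0.23). The share of all probe sets under that adjusted p alone was not counted. The meristem and floral identity markers *CLV3* and *UFO*, the 2 measured of 12, lay at the lowest value on all 6 arrays, as did *SAUR10*, *SAUR57* and *SAUR58*. *IBR5* itself was not analysed here, as the annotation lists no probe set for it.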

How the data were processed

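For each of the 6 ATH1 arrays, the authors deposited log2 values made with gcrma (version not given in the sources used here). Gcrma removes background estimated from probe sequence, which sets dim probe sets to a common lowest value. These values were not scaled again. The table holds 22810 probe sets, and 64 controls were removed. The platform annotation names 1 gene for 13513 of the other 22746 probe sets and several genes for 503, while 8730 are not listed. Of the 13513, 13508 were matched to a locus of RefSeq (TAIR10.1) by gene ID, locus or symbol, and *SAUR* numbers are RefSeq synonyms. For the 147 genes with several probe sets, the probe set of highest mean was used.

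The comparison of genotypes used lmFit and eBayes of limma 3.58.1 (R 4.3.3). Benjamini-Hochberg adjustment ran across all 22746 probe sets, and the fit was tested on simulated data. The thresholds for calls, an adjusted p under 0.05 with a log2 fold change beyond 1 in either direction, are those of the study's methods. Precision is limited by the number of arrays, and an exact permutation test of 3 against 3 cannot give a p below 0.1. The array medians were 6.18 to 6.20. The alternatives were other normalizations, filters, priors, weights, thresholds and choices of probe set, a replicate block, and leaving out each array. The members and gene lists were chosen with earlier results of these data known. Members are all named or counted. Of each pathway list the called genes and up to 3 others of the highest mean are named, with genes at the lowest value. The measured PP2C.D genes are all named by locus. The other pollen and tapetum genes that were not called are left out. Genes beside the *SAUR* loci and other dim list genes were added after values had been seen. The log2 level of 3, from which lower bounds are counted, was also chosen with values known. These bounds run to the L*er* mean and leave out the spread between plants. Tandem groups join members whose locus numbers lie at most 50 apart. Tables and plots were made in Python 3.11.15 (numpy 2.4.6, pandas 2.3.3, matplotlib 3.10.9).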

Additional observations from a re-analysis of the deposited data

How the results depend on the processing

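No *SAUR* gene was called in either direction under any of the 14 alternatives that give the 3 genes a value. Their median log2 fold change was 0.000 in each fit except with arrays centred on their medians, where it was -0.007, the shift of the array medians themselves. Keeping only probe sets with a mean of 4 or more left no *SAUR* gene and gave no value, and no *SAUR* gene lay above 3 on any array. Since the 3 genes lie at the lowest value throughout, their stability across settings says nothing about their transcripts.

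The number of alpha-expansins called lower, 2, was 1 with the filter at 4, which leaves out *EXPA9*, and 0 with the replicate block, where *EXPA8* (log2 fold change -2.69, adjusted p = 0.085 from limma) and *EXPA9* (-2.01, adjusted p = 0.074 from limma) did not pass. The labels do not say whether the replicate numbers pair the plants. The deviations of arrays with the same number correlated with -0.25, 0.01 and -0.04. Of 6 arrays, 1 correlated best with its own number, and so few arrays cannot settle whether the plants were paired. The block left *GH3.3* called and the counts of the *SAUR*, *Aux/IAA* and *GH3* lists as they were. Without any 1 array, *GH3.3*, *EXPA8* and *EXPA9* were called in all fits. Of 24 genes followed, 4 that were not called turned direction: *EXPA20* with 0.03 when arrays were quantile-normalized again, and 3 when 1 array was left out. *IAA30* had a log2 fold change of -0.03 without *tink/ibr5-6* replicate 2 and -0.01 without L*er* replicate 3 (-0.03 to 0.03 over the 6 such fits), *GH3.9* -0.01 without *tink/ibr5-6* replicate 2 (-0.01 to 0.07), and *EXPA4* 0.02 without L*er* replicate 3 (-0.26 to 0.02). The cause was not tested.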
